A study of Mus musculus with 30 samples.

Results

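The Ms4a genes Ms4a3, Ms4a4c, Ms4a6b, Ms4a6c, Ms4a6d and Ms4a7, and Mpeg1, were described from ChIP-seq peak lists of mouse cells that carry an introduced Hoxa9, conditional in the lines with an ER fusion. These 7 genes were taken by name from chromosome 19, out of 21631 protein-coding genes on the autosomes and X. Each was described by the number of H3K4me3 peak bases within the gene and 1 kb on each side, here called the covered bp of the gene. All peaks and all V5 and AM sites between and around the genes were listed as well.

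H3K4me3 is trimethylation of lysine 4 of histone H3, a mark found around the starts of active genes. The Ms4a family encodes small proteins that cross the membrane several times and lie mostly in one gene cluster. Several of its members are used as markers of blood cell types, among them Ms4a1 (CD20) of B cells, Ms4a2 (the beta chain of the high-affinity IgE receptor) of mast cells and basophils, Ms4a3 of granulocyte-monocyte progenitors and Ms4a7 of macrophages. Mpeg1 encodes perforin-2, a pore-forming protein of macrophages that acts against engulfed bacteria. Hoxa9 is a homeobox transcription factor active in blood progenitors. Fusing it to the estrogen receptor (ER) makes its activity depend on estradiol (E2).

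The series held 30 samples, and 10 peak lists were used. The 5 H3K4me3 lists came from cultured ER-Hoxa9-Lys-GFP cells of strain C57BL/6, grown in medium with stem cell factor (SCF) conditioned medium. The groups were cells kept in E2, cells 24 h without E2 and then 96 h with E2, cells 40 h without and 80 h with E2, cells 72 h without and 48 h with E2, and cells 120 h without E2. All 5 groups carried ER-Hoxa9, and a longer time without E2 came with a shorter time back in E2, so these cannot be told apart. The 3 V5 lists and 2 AM lists came from other lines of the same strain: V5-ER-Hoxa9-AM cells 72 h without and 48 h with E2 (V5), V5-ER-Hoxa9-AM cells in E2 (V5 and AM), and untreated V5-Hoxa9-AM cells (V5 and AM). V5 is a peptide tag read by an antibody, and the labels do not spell out AM or Lys-GFP. Both AM samples have V5 as antibody in their labels and were placed by their titles. Whether a line is 1 clone is not stated in the labels, which give no cell type beyond cultured cells.

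Each condition had 1 library, so no difference between conditions has a replicate check, and no p-value or error is given. The lists hold positions only, with no height or score, and read depth is unknown. The H3K4me3 lists held 17497 peaks in E2, then 22871 at 24 h, 21329 at 40 h, 21790 at 72 h and then 23835 at 120 h, covering 10.4, 14.2, 14.9, 16.0 and 17.3 Mb. The V5 lists held 387 sites in V5-ER-Hoxa9-AM cells at 72 h, 1417 in V5-ER-Hoxa9-AM cells in E2 and 17006 in V5-Hoxa9-AM cells, and the AM lists held 258 in V5-ER-Hoxa9-AM cells in E2 and 6773 in V5-Hoxa9-AM cells. A gene can gain covered bp because more cells carry the mark or because the mark is stronger in each cell, and these cannot be told apart here.

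RefSeq promoters (GRCm38.p6, 250 bases before to 50 after the start) were matched for 6 of the 7 genes, with 2 for Ms4a7. The promoters of Ms4a3 and Mpeg1 are shown first, because these genes had the most covered bp. That of Ms4a3, chr19:11640802-11641101 on the minus strand, has in capitals a match to the C/EBP motif TTGCNNAA, at bases 292 to 299, 42 to 49 bases after the start; that of Mpeg1, chr19:12460520-12460819 on the plus strand, has none of the motifs searched.
Ms4a3: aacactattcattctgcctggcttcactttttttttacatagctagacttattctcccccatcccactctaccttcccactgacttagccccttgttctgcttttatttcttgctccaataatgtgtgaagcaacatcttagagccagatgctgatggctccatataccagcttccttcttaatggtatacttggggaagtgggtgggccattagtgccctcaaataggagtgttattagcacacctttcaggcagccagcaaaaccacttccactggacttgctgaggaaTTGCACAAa
Mpeg1: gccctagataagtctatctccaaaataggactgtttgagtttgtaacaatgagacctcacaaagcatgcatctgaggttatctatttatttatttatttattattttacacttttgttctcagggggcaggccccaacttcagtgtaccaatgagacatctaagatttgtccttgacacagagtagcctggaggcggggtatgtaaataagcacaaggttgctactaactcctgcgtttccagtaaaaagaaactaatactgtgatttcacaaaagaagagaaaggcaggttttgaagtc

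The promoters of Ms4a6b (chr19:11518309-11518608, plus strand) and Ms4a6c (chr19:11469118-11469417, plus strand) are shown because they resemble each other more than any other pair here. Capitals mark the longest run they share, 48 bases.
Ms4a6b: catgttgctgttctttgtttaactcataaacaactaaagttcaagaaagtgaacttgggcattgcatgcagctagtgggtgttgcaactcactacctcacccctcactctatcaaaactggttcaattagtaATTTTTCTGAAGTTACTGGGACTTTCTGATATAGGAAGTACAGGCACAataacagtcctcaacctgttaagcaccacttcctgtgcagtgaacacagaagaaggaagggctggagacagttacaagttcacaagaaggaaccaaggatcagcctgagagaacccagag
Ms4a6c: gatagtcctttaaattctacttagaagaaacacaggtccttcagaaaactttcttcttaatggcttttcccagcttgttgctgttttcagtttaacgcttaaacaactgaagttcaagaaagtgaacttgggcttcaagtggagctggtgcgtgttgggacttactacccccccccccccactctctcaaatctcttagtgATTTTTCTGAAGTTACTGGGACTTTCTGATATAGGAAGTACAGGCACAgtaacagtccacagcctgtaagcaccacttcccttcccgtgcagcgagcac

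The shared run lies 71 to 118 bases before the start of Ms4a6b and 2 to 49 bases before that of Ms4a6c. Aligned, these promoters were identical at 63.0% of 300 bases, against 34.0% to 55.7%, with runs of at most 12 bases, for the other pairs among the 7 promoters. No H3K4me3 peak covered the shared run in either gene. The sequences under the peaks were not compared, so whether reads of one gene could be placed on the other was not tested.

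The 7 promoters, of 6 genes, were lower in G and C than the median promoter. G and C made up 44.7% of the Ms4a3 promoter, 40.0% of that of Ms4a4c, 43.0% of Ms4a6b, 45.0% of Ms4a6c, 39.7% and 31.7% of the pair of Ms4a7 promoters and 39.0% of Mpeg1, where the median of all 32851 promoters was 52.7%. CpG dinucleotides numbered 0 in Ms4a3, Ms4a4c and Ms4a6b, 4 in Ms4a6c, 6 and 1 in Ms4a7 and 2 in Mpeg1, beside a median of 7 over all promoters, of which 23.3% had at most 2. The motifs were searched on both strands. The C/EBP motif TTGCNNAA was in 1 of the 7 promoters (Ms4a3) and in 10.8% of all promoters. The AP-1 motif TGANTCA was in 1, the second promoter of Ms4a7, and in 7.81% of all. No match was found in the 7 promoters to GAGGAAGT, an ETS motif bound by PU.1 (in 3.2% of all promoters), to TGATTTAT, a HOX-PBX motif (0.977%), to the MEIS motif TGACAG (19.2%), to an IRF motif (3.44%) or to the core of the promoter box bound by TBP, TATAAA (13.6%). A match is only a match of letters.

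In cells kept in E2, none of the 7 genes overlapped an H3K4me3 peak, while 47.1% of all protein-coding genes did. At 24 h and at 40 h 1 of the 7 genes had a peak, Mpeg1 in both, beside 50.7% and 50.5% of all genes. At 72 h 4 of 7 had one (Ms4a3, Ms4a6b, Ms4a6c and Mpeg1), beside 51.4% of all genes. At 120 h 5 of 7 had one, with Ms4a6d added, beside 53.2% of all genes. The 7 genes thus started below the share of all genes and stood close to it at 72 h, while the share of all genes itself moved little.

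**Figure D1:**
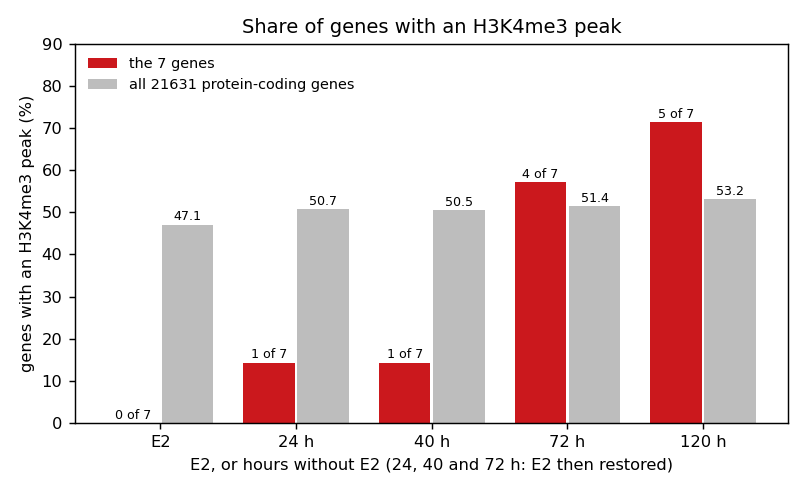
Share of genes (%, vertical axis) with at least 1 H3K4me3 peak base in the gene and 1 kb on each side, in each of the 5 lists (horizontal axis), for the 7 genes (red) and all 21631 protein-coding genes (grey); each bar is 1 library. The 7 genes go through 0, 1, 1, 4 and 5 of 7, while the grey bars stay between 47.1% and 53.2%.

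Read against E2, 5 of 7 genes had peaks at 120 h and none in E2, where 6.5% of all genes met this rule, or 12.3% of the 11443 genes with none in E2. For 72 h against E2 the count was 4 of 7, beside 4.7% of all genes and 8.89% of those with none in E2. For 24 h and 40 h against E2 it was 1 of 7 each, beside 4.06% and 3.78% of all genes and 7.67% and 7.15% of those with none in E2. None of the 7 genes had a peak in E2 to lose. The genes lie on one stretch of chromosome 19, 6 of them in one family cluster, so they are not 7 independent observations.

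Ms4a3 (gene ID 170813, chr19:11629499-11640851, minus strand) had 0 covered bp in E2, then 0 at 24 h, 0 at 40 h, 4026 bp at 72 h and then 1667 bp at 120 h. It was thus listed at 0 in the first 3 lists and had its highest value in cells put back in E2 after 72 h. Its covered bp at 72 h was 2.42 times that at 120 h, a difference of 1.25 on the log2(covered bp + 50) scale. Of all genes, 1.38% had a log2 difference of at least 1 in this direction, and Ms4a3 was the 1 of the 7 genes that did. Of the genes with any peak, 1.55% had at least as much covered bp as Ms4a3 at 72 h, and 34.5% at 120 h. The marked genes of the whole lists had medians of 1396.5 bp at 72 h and then 1370 bp at 120 h, so Ms4a3 was far above the median at 72 h and moderately above it at 120 h.

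At 72 h the mark on Ms4a3 formed a peak of 3578 bp, chr19:11637430-11641007, that overlaps the gene start. Peaks at least this wide numbered 37 of 21790 in that list, or 0.17%. Further into the gene lay peaks of 191 bp and 257 bp, which begin 4831 and 5242 bp downstream of the start. At 120 h Ms4a3 had a peak of 979 bp that begins 53 bp downstream of the start and one of 688 bp that begins 1086 bp downstream. Every base of the 120 h pair was also covered at 72 h, so the 120 h mark lay within the 72 h one. Of the 300-base promoter printed above, 206 bases were covered at 72 h and then 0 at 120 h.

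Mpeg1 (gene ID 17476, chr19:12460770-12465285, plus strand) had 0 covered bp in E2, then 442 bp at 24 h, 438 bp at 40 h, 3860 bp at 72 h and then 4658 bp at 120 h. It was the 1 gene of the 7 with peaks at 24 h and 40 h, and its values formed a low pair at 24 h and 40 h and a high pair at 72 h and 120 h. Between 72 h and 40 h the difference was 3.00 on the log2(covered bp + 50) scale; the value at 72 h was 0.829 times that at 120 h (log2 difference -0.27). Peaks spread over 59.2% of the gene with its flanks at 72 h and 71.5% at 120 h, compared with 6.78% at 24 h and 6.72% at 40 h. Of the genes with any peak, 91.3% had at least as much covered bp as Mpeg1 at 24 h and 92.3% at 40 h, but only 1.84% at 72 h and 1.38% at 120 h.

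The peaks of Mpeg1 at 24 h were 200 bp and 242 bp wide, beginning 341 and 2879 bp downstream of the start, and the 40 h peak was 438 bp wide, beginning 2479 bp downstream. No peak of the 24 h list was narrower than 200 bp, and 86.4% were at least 242 bp wide. Of the 40 h list, 63.5% were at least 438 bp wide. At 72 h a peak of 2772 bp began 339 bp downstream of the start, followed by one of 1088 bp. At 120 h the matching peaks were 2770 bp and 1416 bp wide, the first beginning 361 bp downstream, with another of 472 bp past the end of the gene. Peaks at least as wide as the first one made up 0.661% of the 72 h list and 0.696% of the 120 h list. No peak in any list reached the printed promoter of Mpeg1. A separate peak lay upstream of the gene in 3 lists, 463 bp wide at 24 h, 657 bp at 40 h and then 413 bp at 72 h, its near end 2954, 2693 and 2965 bp from the gene; it was in neither the E2 list nor the 120 h list.

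**Figure D2:**
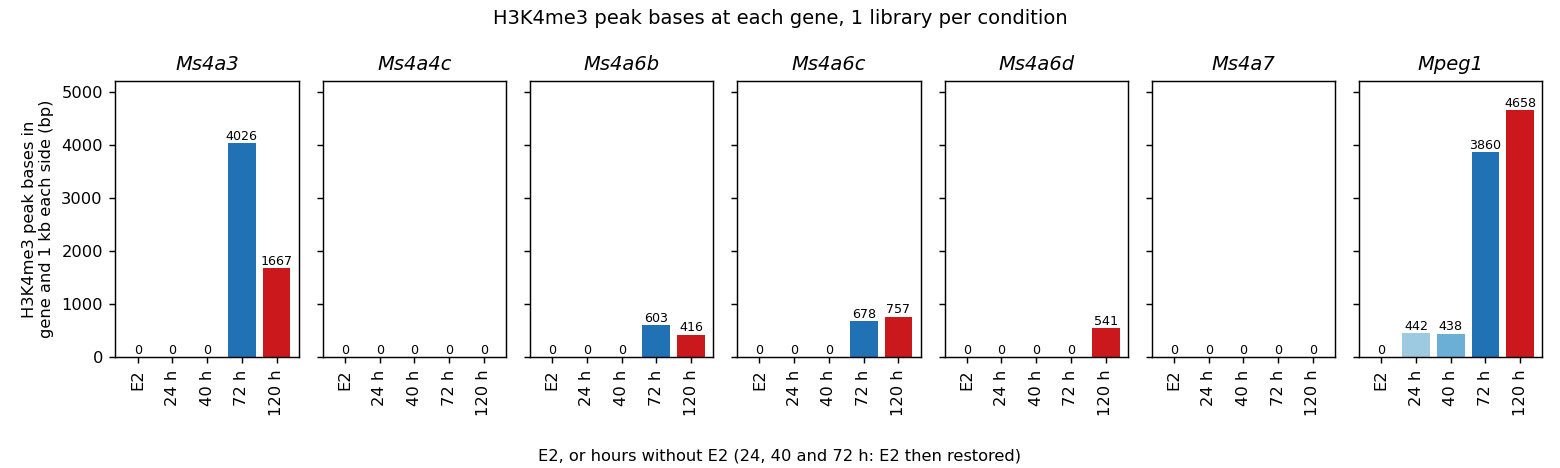
H3K4me3 covered bp (vertical axis, bp within the gene and 1 kb on each side) of each gene in the 5 lists (horizontal axis); each bar is 1 library, with its value above. Ms4a3 is highest at 72 h with 4026 bp, Mpeg1 at 120 h with 4658 bp, and Ms4a4c and Ms4a7 are at 0 throughout.

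Ms4a6b and Ms4a6c, both of the Ms4a6 branch, had short peaks at their starts. Ms4a6b (chr19:11518559-11530403) had 0 covered bp in E2 and at 24 and 40 h, 603 bp at 72 h and then 416 bp at 120 h. Its 72 h peak overlapped the start and covered 51 bases of the printed promoter, while the 120 h peak began 81 bp downstream. Ms4a6c (chr19:11469353-11487182) had 0 covered bp in E2 and at 24 and 40 h, 678 bp at 72 h and then 757 bp at 120 h. Its peaks began 65 bp downstream of the start at 72 h and 49 bp downstream at 120 h, each followed by a shorter one. The 72 h value was 1.45 times the 120 h value for Ms4a6b and 0.896 times it for Ms4a6c, with log2 differences of 0.49 and -0.15. Both genes were low among marked genes: at 72 h 89.5% of them had at least as much as Ms4a6b and 86.6% at least as much as Ms4a6c, and at 120 h these shares were 94.6% and 83.7%.

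Ms4a6d (chr19:11586606-11604804) had a peak in the 120 h list alone, 541 bp wide at chr19:11604162-11604702, just inside the higher-numbered end of the gene, and 0 covered bp in E2 and at 24, 40 and 72 h. Of the genes marked at 120 h, 91.5% had at least as much. Ms4a4c (chr19:11404717-11427246) and Ms4a7 (chr19:11321039-11336146) had 0 covered bp in all 5 lists, as did 45.2% of all genes. With unknown depth, a listed 0 means that no peak was called, not that the mark was absent.

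The 7 genes fell into 4 patterns over the 5 lists. No peak in E2, 24 h and 40 h with peaks at both 72 h and 120 h was the pattern of 3 of 7 (Ms4a3, Ms4a6b and Ms4a6c), beside 0.781% of all genes. A peak at 120 h alone was that of 1 (Ms4a6d), beside 1.8% of all genes. No peak in E2 and peaks in the other 4 lists was that of 1 (Mpeg1), beside 2.5%. No peak in any list was that of 2 (Ms4a4c and Ms4a7), beside 45.2%. Set against 40 h, peaks at 72 h were new in 3 of 7 genes, beside 1.82% of all genes and 3.68% of the 10709 with none at 40 h. Set against 72 h, peaks at 120 h were new in 1 of 7, beside 2.47% of all genes and 5.09% of those with none at 72 h, and 0 of 7 had a peak at 72 h and none at 120 h, beside 0.744%. Of the 4 genes marked in both lists, 2 (Ms4a3 and Ms4a6b) had more covered bp at 72 h than at 120 h, where 50.8% of all genes marked in both did.

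Summed over the 6 Ms4a genes named above, covered bp was 0 in the first 3 lists, 5307 bp at 72 h and then 3381 bp at 120 h. Ms4a3 held 4026 bp of this at 72 h and 1667 bp at 120 h. The stretch of chromosome 19 that holds all Ms4a genes, with 50 kb on each side (chr19:10912289-11690851), had 3 peaks in E2, then 5 at 24 h, 4 at 40 h, 11 at 72 h and then 17 at 120 h. This is 3.85, 6.42, 5.14, 14.1 and 21.8 peaks per Mb, beside 12.1, 14.8, 14.2, 13.9 and 15.2 per Mb on chromosome 19 as a whole. By peak number the Ms4a stretch was below its chromosome up to 40 h, about level at 72 h and above it at 120 h. By covered share it was below its chromosome in all 5 lists, with 0.314%, 0.386%, 0.379%, 1.07% and 1.08% of the stretch covered, beside 0.76%, 1.01%, 1.05%, 1.1% and 1.23% of chromosome 19. Covered bases there were 2447, 3008, 2952, 8358 and 8413, so the 72 h and 120 h lists covered nearly the same length with different numbers of peaks.

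**Figure D3:**
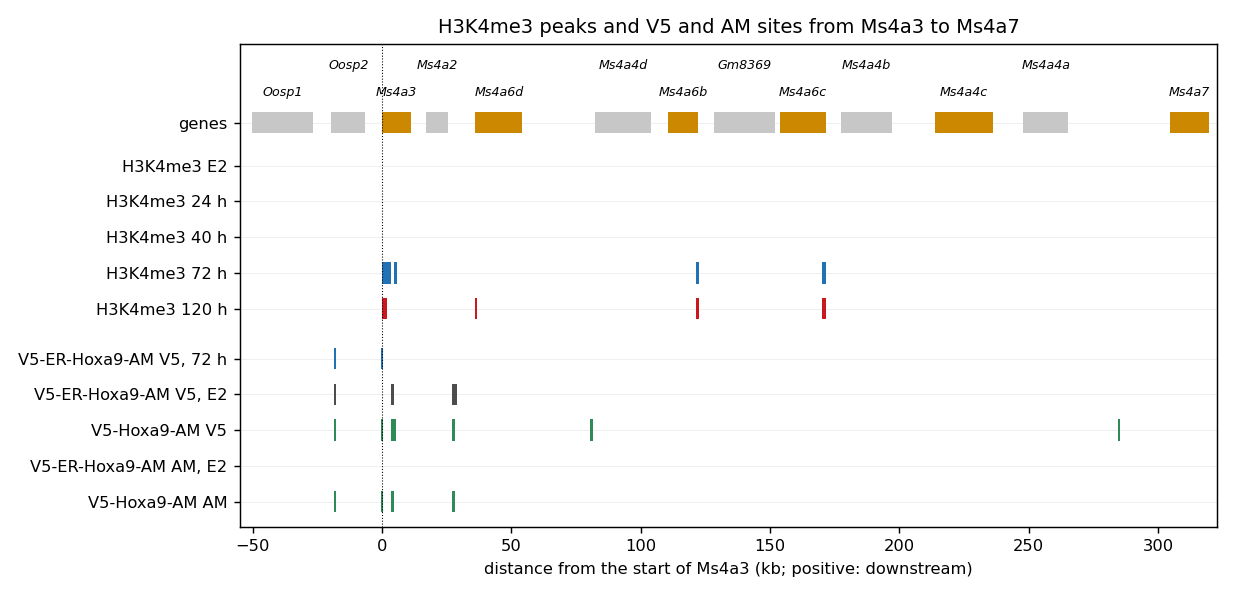
H3K4me3 peaks in the 5 lists and V5 and AM sites in the other 5, over the genes from Ms4a3 to Ms4a7; the horizontal axis is the distance from the start of Ms4a3 in kb, positive downstream, and features narrower than 0.9 kb are drawn 0.9 kb wide. The 6 Ms4a genes described are orange and other protein-coding genes grey; no H3K4me3 peak is drawn in the E2, 24 h and 40 h rows.

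Of the other 15 Ms4a genes of chromosome 19, 2 had an H3K4me3 peak in any list and 13 had none, where 45.2% of all genes had none. Ms4a20 had 0 covered bp in E2, then 208 bp at 24 h, 0 at 40 h, 0 at 72 h and then 686 bp at 120 h. Ms4a15 had 818 bp at 120 h and 0 in the other 4 lists, in a pair of peaks that together overlapped 142 bases of a V5 site of V5-Hoxa9-AM cells (chr19:10979858-10980103). The 13 with 0 covered bp throughout were Ms4a1, Ms4a2, the T cell gene Ms4a4b, Ms4a4a, Ms4a4d, Ms4a5, Ms4a8a, Ms4a10, Ms4a12, Ms4a13, Ms4a14, Ms4a18 and Ms4a19. A pair of relatives in structure on another chromosome, Tmem176a and Tmem176b, were marked in the first 3 lists and not in the last 2. Tmem176a had 376 bp in E2, then 866 at 24 h, 907 at 40 h, 0 at 72 h and then 0 at 120 h, and Tmem176b had 508, 1280, 907, 0 and 0 bp.

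Along the same region 6 other genes had peaks in every list. Mrpl16, of the mitochondrial ribosome, had 750 bp in E2, then 1205 at 24 h, 1459 at 40 h, 1513 at 72 h and then 1059 at 120 h. Stx3, a syntaxin of membrane fusion, had 1133, 1391, 1593, 1791 and 2156 bp, and Dtx4, a Deltex ubiquitin ligase gene next to Mpeg1, had 1301, 1993, 2255, 2449 and 2410 bp. Ccdc86, Patl1 and Osbp were also covered in all 5 lists, with 2143 to 2817 bp, 1114 to 1718 bp and 1044 to 1388 bp. Between the Ms4a stretch and the 50 kb around Mpeg1 the peak count was 15 in E2, then 14 at 24 h, 12 at 40 h, 11 at 72 h and finally 12 at 120 h. Over the whole 1603 kb, 13 of 29 peaks at 72 h and 21 of 36 at 120 h overlapped none of the 20 peaks in E2. All 20 E2 peaks were overlapped at 72 h and at 120 h. The whole E2 list was also shorter, with 17497 peaks beside 21790 at 72 h and 23835 at 120 h. Overlap was not counted over the whole lists, so these counts cannot be called particular to the region. Zp1, a zona pellucida gene at the edge, had 190 bp at 120 h and 0 before.

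Most V5 sites of V5-ER-Hoxa9-AM cells in the region lay between 17910 bp upstream and 28266 bp downstream of the start of Ms4a3. Some of these were closer to Ms4a2 or Oosp2 than to Ms4a3. Across the 1603 kb there were 2 V5 sites in V5-ER-Hoxa9-AM cells at 72 h, 5 in V5-ER-Hoxa9-AM cells in E2 and 24 in V5-Hoxa9-AM cells. AM sites numbered 0 in V5-ER-Hoxa9-AM cells in E2 and 8 in V5-Hoxa9-AM cells. Both 72 h sites, 4 of the 5 E2 sites and all 8 AM sites had the same start and end as a V5 site of V5-Hoxa9-AM cells. Over the whole lists this held for 97.2% of V5-ER-Hoxa9-AM V5 sites at 72 h, 76.1% in E2 and 91.5% of V5-Hoxa9-AM AM sites. Lists that share exact coordinates are not separate measurements of a site's width.

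The number of the 7 genes within 10 kb of a site was close to the background in the longest list. In V5-Hoxa9-AM cells 3 of 7 genes were near a V5 site (Ms4a3, Ms4a6d and Mpeg1), beside 33.4% of all genes. Of the 1406 genes marked at 120 h and not in E2, 44.5% were. In V5-ER-Hoxa9-AM cells at 72 h 1 of 7 was near a V5 site (Ms4a3), beside 1.19% of all genes, and in V5-ER-Hoxa9-AM cells in E2 2 of 7 were (Ms4a3 and Ms4a6d), beside 3.9%. For AM, 0 of 7 were near a site in V5-ER-Hoxa9-AM cells in E2, beside 0.73%, and 2 of 7 in V5-Hoxa9-AM cells (Ms4a3 and Ms4a6d), beside 19%. Ms4a4c, Ms4a6b, Ms4a6c and Ms4a7 had no site within 10 kb in any of the 5 lists, although Ms4a6b and Ms4a6c had H3K4me3 peaks at 72 h and 120 h.

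The start of Ms4a3 lay inside a V5 site of 799 bp, chr19:11640548-11641346, that covers all 300 bases of the promoter printed above. This site was in the V5 list of V5-ER-Hoxa9-AM cells at 72 h and in the V5 and AM lists of V5-Hoxa9-AM cells, and in neither list of V5-ER-Hoxa9-AM cells in E2. It overlapped H3K4me3 peaks by 460 bp at 72 h and then 251 bp at 120 h, and by 0 in E2 and at 24 and 40 h. Sites at least this wide made up 2.52% of the V5 sites of V5-Hoxa9-AM cells. The same membership (72 h and AM, not V5-ER-Hoxa9-AM V5 in E2) was shared by 119 of 17006 V5 sites of V5-Hoxa9-AM cells, or 0.7%. The 387 sites at 72 h and 1417 in E2 are short lists of unknown depth, so a missing site says only that none was called.

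A second site inside Ms4a3, of 596 bp, lay 3696 bp downstream of the start (chr19:11636560-11637155). It was in the V5 list of V5-ER-Hoxa9-AM cells in E2 and in the V5 and AM lists of V5-Hoxa9-AM cells, but not in the 72 h list, a membership shared by 3.65% of V5 sites of V5-Hoxa9-AM cells. No H3K4me3 peak overlapped it: at 72 h it lay in a gap between peaks, 539 and 274 bases from its neighbours. Of the third site in the gene, 295 bp in V5-Hoxa9-AM cells alone, 160 bp overlapped the 191 bp peak at 72 h.

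The widest site of the region, 834 bp at chr19:11658761-11659594, lay in Oosp2, an oocyte-secreted protein gene, 17910 bp upstream of the start of Ms4a3. It was in the V5 lists of V5-ER-Hoxa9-AM cells at 72 h and in E2 and in the V5 and AM lists of V5-Hoxa9-AM cells, as were 1.34% of V5 sites of V5-Hoxa9-AM cells. No H3K4me3 peak overlapped it in any list, and Oosp2 had 0 covered bp throughout. A site of 486 bp lay 27327 bp downstream of the Ms4a3 start, 1993 bp from Ms4a2 and within 10 kb of Ms4a6d. It was in the V5 list of V5-ER-Hoxa9-AM cells in E2 and in the V5 and AM lists of V5-Hoxa9-AM cells, with a site of 186 bp beside it in the E2 list alone.

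**Figure D4:**
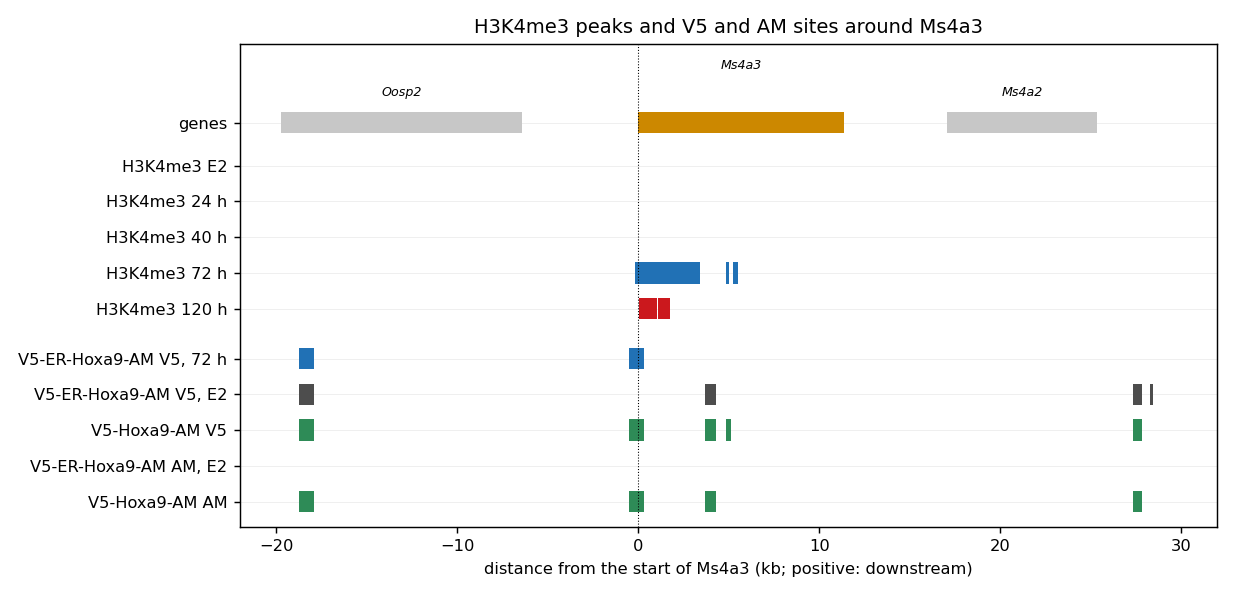
H3K4me3 peaks in the 5 lists and V5 and AM sites in the other 5 around Ms4a3 (orange; neighbours grey); the horizontal axis is the distance from its start in kb, positive downstream. The 72 h peak of 3578 bp covers the start of the gene, the 120 h peaks lie within it, and the 799 bp site at the start is in the 72 h V5 row and both V5-Hoxa9-AM rows.

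Mpeg1 had 1 site inside the gene, 231 bp at chr19:12464219-12464449, in V5-Hoxa9-AM cells alone (V5). All 231 bp were covered by H3K4me3 at 72 h and at 120 h, and none in E2 or at 24 or 40 h. A site of 187 bp lay just past the gene, at the edge of Dtx4. The widest site around Mpeg1, 717 bp at chr19:12434810-12435526, lay 25244 bp upstream of its start, closest to Pfpl, a gene named as pore-forming-protein-like. It was in the V5 lists of V5-ER-Hoxa9-AM cells in E2 and V5-Hoxa9-AM cells and in no AM list. At 120 h a 175 bp H3K4me3 peak overlapped it by 100 bp and another of 175 bp lay 358 bases from its other end; no other list had a peak there. V5-Hoxa9-AM cells also had single V5 sites of 231 bp inside Pfpl and 240 bp between Pfpl and Mpeg1, and Pfpl had 0 covered bp throughout.

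**Figure D5:**
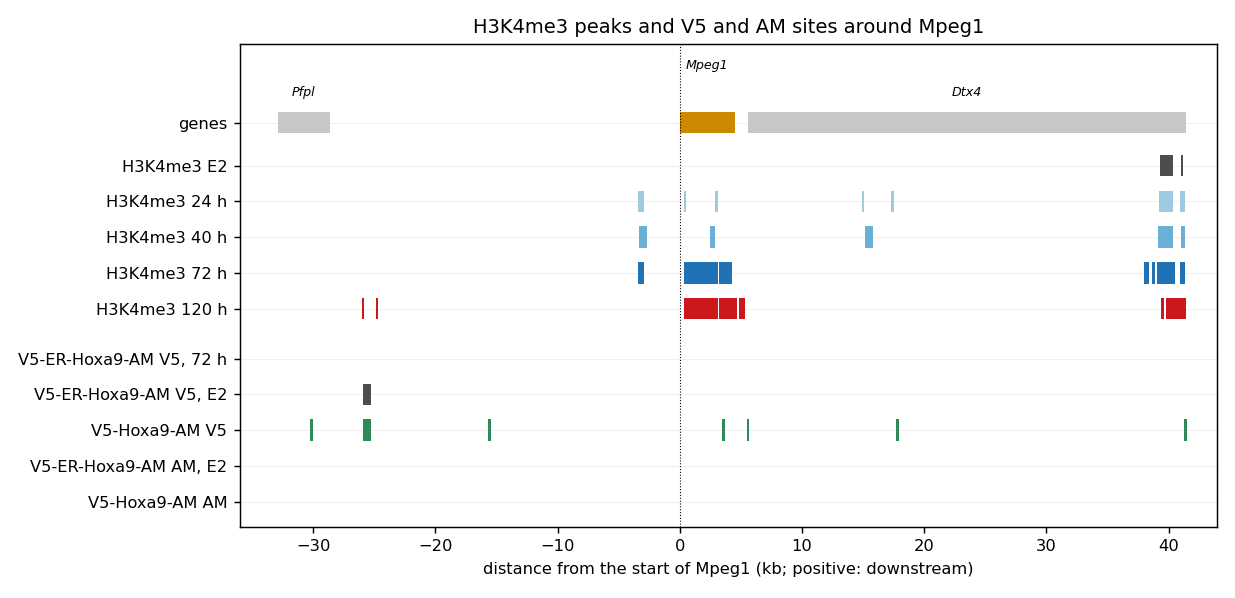
H3K4me3 peaks in the 5 lists and V5 and AM sites in the other 5 around Mpeg1 (orange; neighbours grey); the horizontal axis is the distance from its start in kb, positive downstream. Peaks cover most of the gene at 72 h and 120 h. Short peaks stand close upstream at 24 h, 40 h and 72 h and farther upstream at 120 h, and the AM rows are empty.

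Of the 24 V5 sites of V5-Hoxa9-AM cells in the region, 4 lay inside one of the 7 genes, 3 inside another Ms4a gene (Ms4a15, Ms4a8a and Ms4a20) and 12 in no protein-coding gene. Beside those described above, sites lay in or nearest to Ms4a15, Ms4a18, Ms4a8a, Ms4a20, Ms4a4a, Ms4a4d, Osbp, Olfr1423 and Dtx4; Ms4a18 and Ms4a8a had a site within 1 kb and 0 covered bp in all 5 lists. AM sites had the same coordinates for 8 of the 24 (33.3%), beside 36.4% of all 17006. V5-ER-Hoxa9-AM V5 sites did for 2 at 72 h (8.33%), beside 2.21%, and for 4 in E2 (16.7%), beside 6.34%. H3K4me3 peaks overlapped 2 of the 24 in E2, then 3 at 24 h, 3 at 40 h, 6 at 72 h and then 7 at 120 h, or 8.33%, 12.5%, 12.5%, 25.0% and 29.2%, beside 8.32%, 12.3%, 12.5%, 13.7% and 16.9% of all sites. The cluster thus matched all sites up to 40 h and had larger shares from 72 h on, on counts of 6 and 7 sites.

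Marker genes of blood cell types were read the same way. Of all protein-coding genes, 47.1% had a peak in E2, 50.7% at 24 h and 50.5% at 40 h. At 72 h and 120 h the shares were 51.4% and 53.2%. The marker lists are short, so their counts are coarse beside these shares. Of 5 monocyte and macrophage markers (Csf1r, Cd14, Fcgr1, Mpeg1 and Ms4a7), 0 had a peak in E2, then 2 at 24 h, 1 at 40 h, 2 at 72 h and then 4 at 120 h, with summed covered bp of 0, 888, 438, 4078 and 10147. Of 4 granulocyte-monocyte progenitor markers (Ms4a3, Mpo, Ctsg and Prtn3), 3 had a peak in E2 and at 24 and 40 h, and 4 had one at 72 and 120 h, with sums of 12715, 13722, 13643, 17875 and 7013 bp. Mpo, Ctsg and Prtn3, of the primary granules, thus carried the mark in E2 while Ms4a3 did not. Mpeg1, Ms4a7 and Ms4a3 are among the genes described above, so these sums are not separate from their values. Mpeg1 alone held 442, 438, 3860 and 4658 bp of the monocyte and macrophage sum at 24, 40, 72 and 120 h. Ms4a3 held 4026 bp of the progenitor sum at 72 h and 1667 bp at 120 h. Of 3 T cell markers 0, 0, 0, 1 and 1 had one (Cd3d, at most 516 bp), with Cd3e and Ms4a4b at 0 throughout. Of 4 mast cell and basophil markers none had a peak in any list. Single genes of other lineages were marked too: Cd79a, of the B cell receptor, had 0 covered bp in the first 4 lists and 608 bp at 120 h, and Klf1, an erythroid transcription factor, had 633 bp in E2, then 515 at 24 h, 541 at 40 h, 1112 at 72 h and finally 1102 at 120 h.

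Wider lists of genes with related roles were counted too. In a list of 25 monocyte and macrophage genes, 7 had a peak in E2, then 9 at 24 h and 8 at 40 h. At 72 h 11 had one and at 120 h 16, while 47.1% to 53.2% of all genes did over the 5 lists. Of the 25, 10 were marked at 120 h and not in E2, beside 6.5% of all genes. The reverse held for 1, the chemokine receptor gene Ccr2, beside 0.425%. The most covered at 120 h were Tlr2, a receptor of bacterial lipoproteins (781, 1017, 930, 1392 and 3134 bp in E2 and at 24, 40, 72 and 120 h), Csf1r, the M-CSF receptor (0, 0, 0, 218 and 3040 bp), and Fcgr3, an IgG receptor (1017, 1212, 1302, 1039 and 2748 bp). In 15 macrophage lysosome genes 9, 10, 10, 10 and 12 had a peak, beside 47.1% to 53.2% of all genes, and 3 were marked at 120 h and not in E2, with Ctsd, Tcirg1 and Ctsz the most covered at 120 h (3852, 3031 and 2836 bp). The median log2 difference of 120 h against E2 was 1.19 in the monocyte and macrophage list and 1.77 in the lysosome list, beside 0.59 over the 11594 genes with a peak in E2 or at 120 h. The medians of the 2 gene lists also include genes with no peak in either condition, at a difference of 0, and that of 0.59 does not. Among 10 pore-forming, gasdermin and granule genes, 3 were marked in every list (Srgn, Gsdme and Gsdmd, with 3436, 1928 and 1249 bp at 120 h), while Prf1, perforin itself, and the 5 granzyme genes listed had 0 throughout. In 7 mast cell, basophil and eosinophil markers 1 had a peak throughout (Gata2, 2531 bp at 120 h). What part a changing mix of cell types had in these values was not tested.

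The genes most like Ms4a3 and Mpeg1 were found by the Euclidean distance of log2(covered bp + 50) over the 5 lists, among 21630 other genes. Closest to Ms4a3 was Ly6c2, which encodes the monocyte surface protein Ly6C, at a distance of 0.79, with 0 covered bp in the first 3 lists, 2322 at 72 h and then 1783 at 120 h. It was followed by Rab7b (1.36), Alcam (1.5), Lcp2 (1.67) and Mapk4 (1.96), all at 0 in the first 3 lists; these 4 had more covered bp at 120 h than at 72 h, for example 3030 bp at 120 h and 1452 bp at 72 h for Lcp2. Closest to Mpeg1 were Sgms2 (1.48), Vsir (1.49), Tyrobp (1.5), Tle3 (1.54) and Klf7 (1.57). Tyrobp, the adaptor of myeloid surface receptors, had 0 bp in E2, then 733 at 24 h, 313 at 40 h, 1567 at 72 h and then 4625 at 120 h. These distances describe 5 single libraries.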

How the data were processed

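ChIP-seq peak lists were deposited as plain positions: the chromosome, start and end of each peak, with no score, signal or p-value, and starts were counted from 0 and converted to count from 1. Bowtie2 2.0, BWA, MACS2 2.0, mm9 and mm10 are named per the submitters' processing notes; which belonged to which file, thresholds, the use of inputs and depth are not given in the sources used here. Histone mark ChIPs started from 500 ug of chromatin and the others from 30 ug, per the labels' protocols.

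The build of each list used was read from its fit to the GRCm38.p6 RefSeq gene table, which gave gene names and positions. H3K4me3 peaks were no more than 1 kb from a gene end in 58.5% to 69.3% of cases, and in 9.29% to 9.53% after a shift of 100 kb, so these lists were taken as GRCm38. V5 sites of V5-Hoxa9-AM cells did in 11.7%, against 5.66% after the shift; the short V5-ER-Hoxa9-AM lists showed no such contrast and were taken as the same build by their shared coordinates. Of the 6 H3K27ac and 5 H3K27me3 lists, only the E2 list of each mark was checked. These showed little or no contrast (9.53% against 8.32% for H3K27ac, and 9.74% against 10.1% for H3K27me3). No list of either mark was used here, nor were the inputs and the 96 h samples.

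Covered bp is the union of peak bases in the gene and 1 kb on each side; log2 differences used a pseudocount of 50 bp. Genes named beside the 7 were all other Ms4a genes and marked or bound neighbours, the 3 most covered genes at 120 h of each list, and the 5 nearest in pattern; Oosp2, Pfpl, Prf1, Ccr2 and single markers were named besides. The 7 genes and all lists were chosen with earlier results of these data known. Ms4a6e and Tpsab1 were not matched by symbol, and the summed B cell, lymphoid and erythroid marker lists are not reported here; Cd79a and Klf1 of them were chosen after their values were seen. Python 3.11.15, numpy 2.4.6, pandas 2.3.3 and biopython 1.88 were used, and the counting of covered bases was tested on simulated peaks. Alternatives changed the flank, the peaks kept, the overlap, the merging of peaks and the site distance.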

Additional observations from a re-analysis of the deposited data

How the results depend on the processing

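Among the counts that answer a comparison, 64 values under another setting stayed within 1.5 times the main value and 22 did not. Counting only 1 kb around the gene ends left 0 of 7 genes marked at 40 h. Keeping peaks wider than the median of their own list left 0 at 24 h and 0 at 40 h, with 2 at 72 h and again 2 at 120 h (Ms4a3 and Mpeg1), and 2 for both 72 h and 120 h against E2; this removes the short peaks of Ms4a6b, Ms4a6c and Ms4a6d by construction. Keeping the 17497 widest peaks of each list left 0 at 24 h. Merging peaks within 1 kb gave 10, 17, 13, 16 and 20 peaks over the region in E2 and at 24, 40, 72 and 120 h, with 11 at 120 h overlapping none in E2, 7 at 120 h none at 72 h, 6 at 72 h none in E2 and 4 at 72 h none at 40 h. This turned the order of 72 h and 24 h round, which unmerged had 29 and 26 peaks. Genes near a V5 site of V5-ER-Hoxa9-AM cells numbered 2 at 72 h within 50 kb and 1 in E2 within 5 kb. In V5-Hoxa9-AM cells 6 were near a V5 site within 50 kb and 1 near an AM site within 5 kb. The share of all genes near a site was counted at 10 kb only, so these counts have no background to be read against. In V5-Hoxa9-AM cells 11 V5 sites of the region were wider than their list's median. Of values of single genes 114 stayed and 12 did not. Some of the 114 could not move, such as those of Ms4a4c and Ms4a7, which were 0 under every setting. The log2 differences of Ms4a6b and Ms4a6c also counted as staying where only wider peaks were kept, although neither gene then had a peak. Around gene ends alone the covered bp of Ms4a3 was 1157 at 72 h and 948 at 120 h, a log2 difference of 0.27, so its excess at 72 h over 120 h lay mostly over 1 kb from the gene ends; that of Mpeg1 was 1427 at 72 h and 2247 at 120 h.

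Ranking peaks by score was not run, since the lists hold positions only. No paired analysis was possible because each condition had 1 library and no test was made. Depth is unknown, so a missing peak cannot be told from one below the caller's threshold, and differences between lists in how much was called bear on every count.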
